A study of Mus musculus with 8 samples.

Results

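Sprouty and Spred proteins and the dual-specificity phosphatases are inhibitors that growth factor signalling raises against itself. Their 10 genes Dusp1, Dusp4, Dusp5, Dusp6, Dusp10, Spry1, Spry2, Spry4, Spred1 and Spred2 were taken by symbol from per-library expression tables that list 23699 genes. All 10 were found, once each, and all 10 passed the filter of a mean of at least 1 FPKM (fragments per kilobase of transcript, scaled to the mapped fragments of the library) over the 8 libraries, which 11398 genes passed. The libraries are total RNA of mouse 3T3-L1 cells, a fibroblast line that can turn into adipocytes, collected as preadipocytes at 2 days past confluence with no inducer of differentiation named. Before confluence 4 samples received for 24 hours a mix of 3 Stealth siRNAs (chemically modified duplexes) against Fto, an RNA and DNA demethylase gene, and 4 received 3 nontargeted siRNAs, with the siRNA at 40 nM in Lipofectamine 2000. All 8 therefore share 1 cell line and the lipid transfection, and the knockdown was transient and partial. The 4 Fto siRNA samples received the same mix, so effects of lower Fto and other effects of these siRNAs cannot be told apart. Whether the 4 replicates of a group were grown separately is not in the labels, and the p-values below cover only the variation among these samples, which may be technical.

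Growth factors bind receptor tyrosine kinases, which recruit adaptors such as Grb2 and Frs2, load Ras with GTP, and so start the Raf, MEK and ERK kinase cascade. ERK then induces immediate early genes and, with them, genes that shut the cascade down. Sprouty and Spred proteins act upstream, between the receptor and Raf. The dual-specificity phosphatases act on the MAP kinases themselves, removing phosphate from the threonine and tyrosine of their activation loop. In 3T3-L1 cells ERK activity is known to bear on both the growth of preadipocytes and the early steps of adipogenesis, so the level of these inhibitors is of interest where Fto, a gene tied to adiposity, is lowered.

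Fto mRNA checked the labels. It held 54.6, 55.4, 56.2 and 55.2 FPKM in the controls and 13.8, 10.7, 12.3 and 11.6 FPKM with Fto siRNA, 78.1% below the control mean (exact two-sided permutation p = 0.0286, the smallest that 70 arrangements allow). Of 9 preadipocyte markers, 8 had a mean of at least 1 FPKM, with sums of 5220 to 5710 FPKM in control and 5700 to 6720 FPKM in knockdown libraries, and Cd34 was under 1 in every library. Of 7 markers of mature adipocytes 3 had a mean of at least 1, with sums of 51.6 to 83.2 and 54.2 to 65.9 FPKM. By the limma test described below, 4 of 8 tested preadipocyte markers were higher with Fto siRNA and 2 lower. The shares of all tested genes were 6.97% and 12.3%. After quantile scaling the marker counts were 2 and 1. The 3 tested mature adipocyte markers had a median log2 fold change of -0.44, and 0 were called. Of 6 macrophage markers 2 had a mean of at least 1 FPKM. The 6 summed to 7.86 to 10.1 FPKM over all libraries, with Emr1 listed at 0 and Ptprc and Itgam under 1 in each. The 4 endothelial and 4 epithelial markers stayed under 1 FPKM each, with Epcam and Krt18 at 0. The part of these markers in the results below was not tested. Each library had 11351 to 11397 genes at 1 FPKM or more.

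Among the 10 inhibitors, Spry1 and Spry2 were lower after Fto knockdown and the other 8 did not pass the test. Groups were compared by limma on log2(FPKM + 0.5) over all 11398 tested genes, with Benjamini-Hochberg adjustment and a threshold of 0.05. Of the 10, 2 fell, against 12.3% of all tested genes, and limma called 0 higher, against 6.97% of all tested genes, also 0 at an unadjusted p under 0.05. A count of 2 in 10 lies near the background share. The median log2 fold change of the 10 was -0.11, beside -0.02 for all tested genes, with 6 of the 10 below 0. The FPKM of the groups did not overlap for 3 of the 10, all lower with Fto siRNA. Of all tested genes 15.1% were lower and 9.08% higher without overlap.

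**Figure D1:**
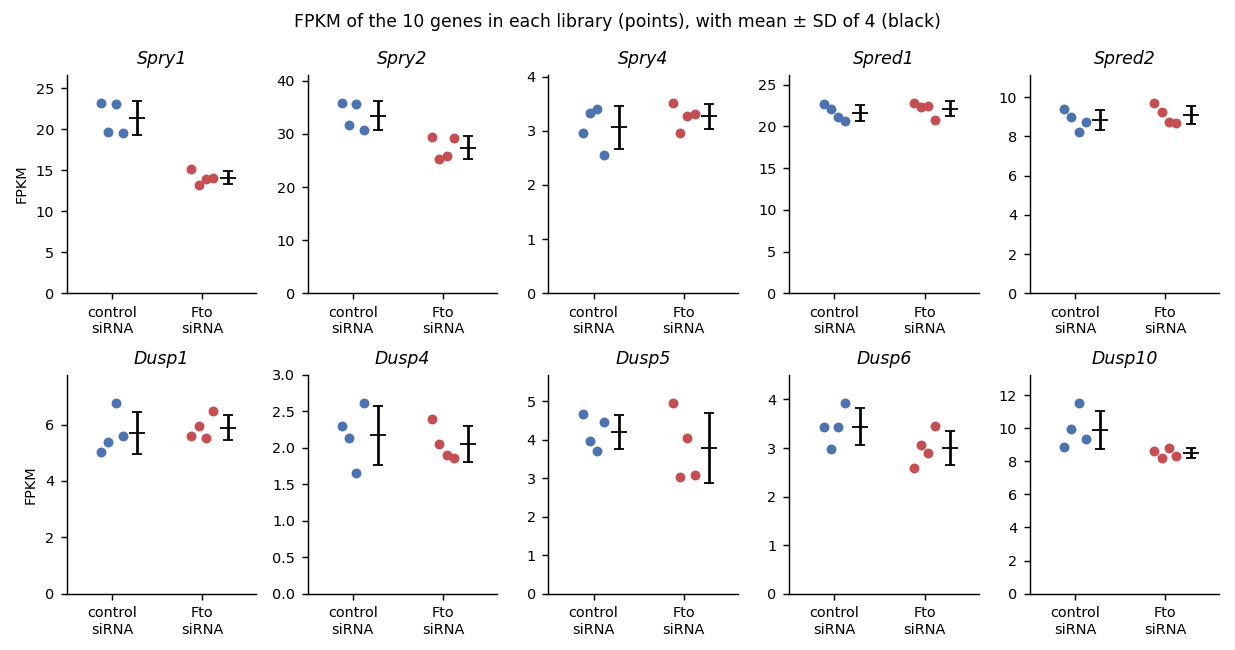
FPKM of each of the 10 genes (vertical axes, each from 0) in the 4 libraries with control siRNA (blue) and the 4 with Fto siRNA (red), with the mean and SD of 4 in black. The Spry1 points of the groups lie far apart, 19.5 to 23.2 against 13.2 to 15.2 FPKM, those of Spry2 and Dusp10 just clear each other, and the other 7 genes overlap.

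The sequences shown first are the promoters of Spry1 and Spry2, because these are the members that fell. They are from RefSeq on build GRCm38.p6 and are printed for the 250 bases before the annotated start, while the search window ran on to 50 bases after it and the expression tables use mm9. Capitals mark a match to any of 6 motifs searched on both strands: the CRE (TGACGTCA), AP-1 (TGANTCA), an ETS site (CCGGAAG), the E-box (CACGTG), the GC box (GGGCGG) and the TATA box (TATAAA).
Spry1, chr3:37639697-37639946, plus strand: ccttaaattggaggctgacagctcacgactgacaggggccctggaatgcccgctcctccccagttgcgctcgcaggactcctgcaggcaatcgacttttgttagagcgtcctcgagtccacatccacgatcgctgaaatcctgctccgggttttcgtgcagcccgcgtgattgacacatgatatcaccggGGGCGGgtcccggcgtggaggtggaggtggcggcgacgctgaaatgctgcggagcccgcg
Spry2, chr14:105896820-105897069, minus strand: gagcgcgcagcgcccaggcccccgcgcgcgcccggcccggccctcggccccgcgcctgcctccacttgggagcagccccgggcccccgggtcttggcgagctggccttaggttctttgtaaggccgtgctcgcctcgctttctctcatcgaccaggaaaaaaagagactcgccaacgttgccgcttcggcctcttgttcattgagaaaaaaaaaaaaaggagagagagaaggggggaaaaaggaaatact

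Of these motifs the Spry1 window held 1 GC box and the Spry2 window held none. The GC content of these windows was 64.3% and 62.7%. Among 32851 promoter windows of the same length, 35.7% held a GC box, 13.6% a TATA box, 8.86% the ETS letters, 7.81% AP-1, 7.15% an E-box and 1.79% a CRE. Promoter windows were found for 8 of the 10 genes, not for Dusp4 and Spry4. The window of Dusp1 held the CRE, an E-box and 3 GC boxes, those of Dusp10 and Spred1 held 3 GC boxes each, those of Dusp5 and Spred2 held 1 each, and that of Dusp6 held none of the 6 motifs. A match describes letters only, and a window without a match says nothing of the factor.

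Spry1 (mm9 chromosome 3, 37538872 to 37543521), which encodes a Sprouty protein that blocks receptor tyrosine kinase signalling to Ras and ERK, had the largest change of the 10. It held 23.2, 19.7, 23.1 and 19.5 FPKM in control replicates 1 to 4 and 15.2, 13.2, 14.0 and 14.1 FPKM in Fto siRNA replicates 1 to 4. Every library with Fto siRNA lay below every control. The means were 21.4 ± 2.05 and 14.1 ± 0.837 FPKM (SD, n = 4), a change of -33.9%, and the log2 fold change was -0.58 with SE 0.068 (95% interval -0.73 to -0.43, limma adjusted p = 4.5e-04). Of the 11398 tested genes 91 had a lower fold change. RNA was taken from whole cultures, so fewer cells with Spry1 mRNA and less of it per cell cannot be told apart, here and for each gene below.

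Spry2 (mm9 chromosome 14, 106291164 to 106296036), the most abundant of the 10 and also a Ras and ERK pathway inhibitor, fell less. Its values were 35.8, 31.6, 35.7 and 30.7 FPKM in the controls and 29.4, 25.3, 25.8 and 29.2 FPKM with Fto siRNA. The groups did not overlap, but the lowest control and the highest library with Fto siRNA were only 30.7 and 29.4 FPKM. The means were 33.4 ± 2.68 and 27.4 ± 2.17 FPKM (SD, n = 4), a change of -18.0%, with a log2 fold change of -0.28 and SE 0.067 (95% interval -0.43 to -0.13, limma adjusted p = 0.016). Of the tested genes 669 had a lower fold change. Control replicates 1 and 3 were the higher pair and replicates 2 and 4 the lower pair for both Spry1 and Spry2, and Fto siRNA replicate 2 was the lowest library for both.

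Spry4 (mm9 chromosome 18, 38745919 to 38760922), the remaining Sprouty gene of the set, did not pass the test. It held 2.96, 3.33, 3.41 and 2.55 FPKM in the controls and 3.51, 2.96, 3.27 and 3.31 FPKM with Fto siRNA, and the groups overlapped. The log2 fold change was 0.08 with a 95% interval of -0.11 to 0.28 (limma adjusted p = 0.56), so a fall as large as the point estimate for Spry2 lies outside that interval. Spry3 was listed at 0 in all libraries.

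The Sprouty genes were then compared with each other inside each library, which removes any difference in library scaling. These 3 pairs were tested after their values had been seen. The FPKM ratio of Spry1 to Spry2 was 0.649, 0.621, 0.647 and 0.637 in the controls and 0.518, 0.522, 0.542 and 0.483 with Fto siRNA. The control ratios were nearly alike, although Spry1 and Spry2 each varied between controls, and all 4 ratios with Fto siRNA lay below them. The mean ratio went from 0.639 ± 0.0126 to 0.516 ± 0.0245 (SD, n = 4), a difference of -0.31 on the log2 scale (exact two-sided permutation p = 0.0286, 0.0286 adjusted over 3 pairs). Spry1 thus fell more than Spry2 relative to the spread of this ratio.

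The ratios to Spry4 were also lower with Fto siRNA in every library. The control libraries had 5.9 to 7.84 times as much Spry1 as Spry4 and the knockdown libraries 4.25 to 4.46 times, a log2 difference of -0.69. Spry2 to Spry4 was 9.49 to 12.1 and 7.9 to 8.8, a log2 difference of -0.38. Both had an exact permutation p of 0.0286, the smallest the design allows, and 0.0286 adjusted over the 3 pairs. The 3 ratios depend on each other, and the adjustment does not cover their choice after the values were seen. The summed FPKM of the 3 Sprouty genes was 61.9, 54.6, 62.2 and 52.8 in the controls and 48.1, 41.4, 43.1 and 46.6 with Fto siRNA, given as a description.

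**Figure D2:**
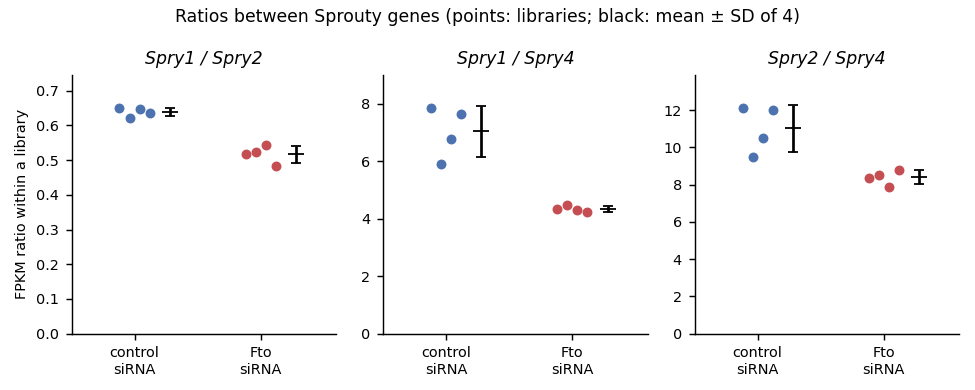
Ratio of the FPKM of 2 Sprouty genes within each library (vertical axes, from 0) for Spry1 over Spry2, Spry1 over Spry4 and Spry2 over Spry4, with control siRNA in blue, Fto siRNA in red and mean ± SD of 4 in black. In each panel the 4 ratios with Fto siRNA lie below the 4 control ratios, for Spry1 over Spry2 at 0.483 to 0.542 against 0.621 to 0.649.

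The Spred genes, whose proteins share the cysteine-rich Sprouty domain and hold back Raf activation with the Ras regulator neurofibromin, did not pass the test. Spred1 (mm9 chromosome 2, 116947186 to 117005072) held 22.7, 22.1, 21.1 and 20.6 FPKM in the controls and 22.8, 22.3, 22.5 and 20.8 FPKM with Fto siRNA. Its log2 fold change was 0.03, with the narrowest 95% interval of the 10, -0.07 to 0.13 (limma adjusted p = 0.683). Spred2 (mm9 chromosome 11, 19824445 to 19922600) held 8.22 to 9.4 and 8.7 to 9.7 FPKM, a log2 fold change of 0.04 (95% interval -0.08 to 0.16, limma adjusted p = 0.638). For both genes the groups overlapped over most of their range. Neither passed at an unadjusted p under 0.05.

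Spred1 and Spry1 stood at levels that overlapped in the controls and apart after knockdown. Their control means were 21.6 ± 0.955 and 21.4 ± 2.05 FPKM (SD, n = 4), with Spred1 the higher in 2 of 4 control libraries. With Fto siRNA Spred1 was the higher in 4 of 4, at 22.1 ± 0.883 against 14.1 ± 0.837 FPKM, and the ranges did not overlap. This pair was singled out after the values were seen and is given without a test.

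None of the 5 dual-specificity phosphatase genes was called by limma, and 1, Dusp10, was lower at an unadjusted p under 0.05. Dusp10 (mm9 chromosome 1, 185858340 to 185899515), whose product prefers the stress kinases p38 and JNK over ERK, held 8.85, 9.95, 11.5 and 9.37 FPKM in the controls and 8.62, 8.22, 8.83 and 8.3 FPKM with Fto siRNA. The lowest control and the highest knockdown library were nearly level, at 8.85 and 8.83 FPKM, so the groups were apart by less than the interval of either value. The means were 9.93 ± 1.17 and 8.49 ± 0.285 FPKM (SD, n = 4), and limma gave -0.21 on the log2 scale with SE 0.072 and an adjusted p of 0.069. Leaving out control replicate 1, the lowest control, took it past the threshold (-0.26, limma adjusted p = 0.0369), and leaving out control replicate 3, the highest, gave -0.14 (limma adjusted p = 0.09).

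Dusp6 and Dusp5, which encode phosphatases specific for ERK, the first in the cytoplasm and the second in the nucleus, were lower on average with overlapping groups. Dusp6 (mm9 chromosome 10, 98725865 to 98730123) held 3.43, 2.99, 3.43 and 3.92 FPKM in the controls and 2.59, 3.07, 2.9 and 3.45 FPKM with Fto siRNA. Its log2 fold change was -0.17 (95% interval -0.38 to 0.04, limma adjusted p = 0.236). It was -0.11 on leaving out control 4 or Fto siRNA library 1, and -0.23 on leaving out control 2 or Fto siRNA library 4. Dusp6 was not called in any of these. Dusp5 (mm9 chromosome 19, 53603808 to 53615812) held 4.68, 3.98, 3.71 and 4.46 FPKM in the controls. With Fto siRNA it held 4.95, 3.04, 4.06 and 3.08 FPKM, a CV of 24.0% that was the widest spread of any of the 10 genes in either group. Its log2 fold change was -0.16 (95% interval -0.45 to 0.14, limma adjusted p = 0.464). Single libraries moved it, to -0.28 without Fto siRNA library 1, the highest, and to -0.07 and -0.08 without libraries 2 and 4, the lowest, and it was not called in any of these.

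Dusp1 and Dusp4, nuclear phosphatases that act on ERK and on the stress kinases, had the smallest differences of the phosphatase genes. Dusp1 (mm9 chromosome 17, 26642536 to 26645417), an immediate early gene, held 5.02, 5.39, 6.75 and 5.6 FPKM in the controls and 5.59, 5.96, 5.53 and 6.49 FPKM with Fto siRNA. Its log2 fold change was 0.05 (95% interval -0.14 to 0.24, limma adjusted p = 0.721). Dusp4 (mm9 chromosome 8, 35870664 to 35882948), the least abundant of the 10, held 1.65 to 2.61 and 1.86 to 2.4 FPKM. Its log2 fold change was -0.06 (95% interval -0.32 to 0.21, limma adjusted p = 0.782). The intervals of Dusp4, Dusp5, Dusp6 and Dusp10 reach past the value of Spry2, -0.28, so a fall of that size is not outside what these libraries allow for them.

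**Figure D3:**
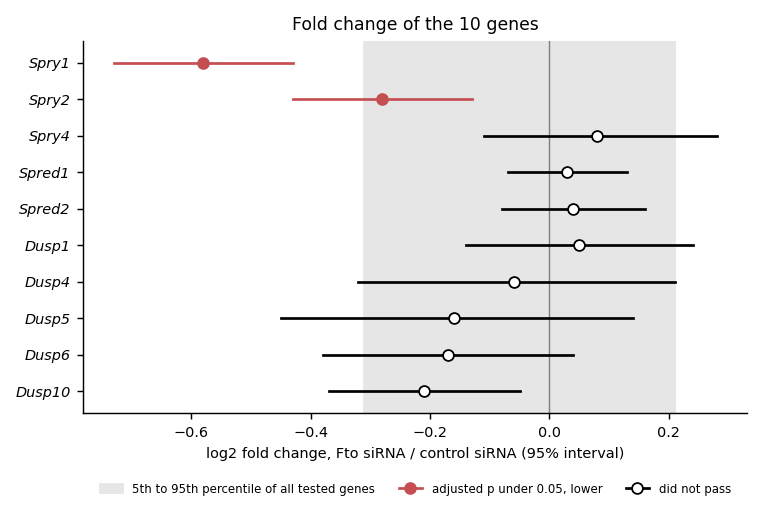
Log2 fold change of Fto siRNA over control siRNA (horizontal axis) for the 10 genes, with 95% intervals, filled red where the adjusted p was under 0.05 and open where the gene did not pass. The grey band spans the 5th to 95th percentile of all tested genes, -0.31 to 0.21, and Spry1 at -0.58 is the only one of the 10 outside it.

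The precision of these values differed between genes and did not strictly follow their level. The half-width of the deposited intervals was 5.18 to 5.83% of the value for Spred1, 5.28 to 6.63% for Spry2 and 6.02 to 8.17% for Spry1. It was 10.6 to 12.5% for Spry4, 12.8 to 14.9% for Dusp1, 13.1 to 16.8% for Dusp6, 17.3 to 23.2% for Dusp4 and 19.9 to 25.8% for Dusp5. Library depth is not known, and these intervals cover the estimation error of 1 library only. Every value had the status OK in every library, and no other listed gene overlapped any of the 10 loci.

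In order of level the controls held Spry2 at 33.4, Spred1 at 21.6, Spry1 at 21.4, Dusp10 at 9.93, Spred2 at 8.83, Dusp1 at 5.69, Dusp5 at 4.21, Dusp6 at 3.44, Spry4 at 3.06 and Dusp4 at 2.17 mean FPKM, a scale per transcript length. The control ranges of Spred1 and Spry1 overlapped, as did those of Dusp10 and Spred2, Dusp5 and Dusp6, Dusp6 and Spry4, and Spry4 and Dusp4, so these neighbours are not ordered beyond their spread. The other 4 steps separated in all 4 controls. Within libraries Dusp5 was above Dusp6 in 4 of 4 controls although these ranges overlapped, and in 2 of 4 libraries with Fto siRNA. With Fto siRNA the order of Dusp10 and Spred2 turned in the means, to 8.49 and 9.1 FPKM, with Dusp10 above Spred2 in 1 of 4 libraries against 3 of 4 controls.

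**Figure D4:**
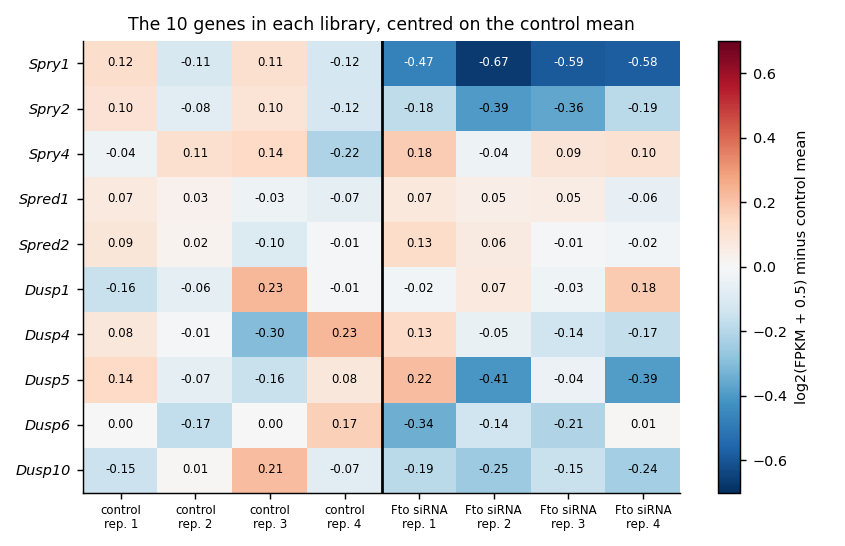
Log2(FPKM + 0.5) of the 10 genes (rows) in each of the 8 libraries (columns), minus the control mean of the gene, red above and blue below it. The Spry1 row is between -0.67 and -0.47 in the 4 libraries with Fto siRNA and between -0.12 and 0.12 in the controls, while of the Dusp rows only Dusp10 is below 0 in all 4 libraries with Fto siRNA.

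Sequence words in the 3′ untranslated regions were looked at because carriers of GACCTTA or ACCTTAA were lower in these same libraries in an earlier search, which chose the words on these data. The longest 3′ untranslated region annotated for each gene in GENCODE M21 (GRCm38) was searched, so other isoforms are not covered. Either word was held by 26.3% of 1235 called lower genes, 8.33% of 708 called higher genes and 11.4% of 7870 others. Since the words were chosen for such a difference, these shares are a description and no test. Spry1 and Spry2 held neither word in 1047 and 856 bases, nor the 6 bases ACCTTA common to both. Of the 10 genes only Dusp6 held a word, 1 copy of ACCTTAA, shown with its flanks at chr10:99267444-99267465, plus strand, with the word in capitals. Spry4 held the shorter ACCTTA.
Dusp6: aatgtaaaACCTTAAattatta

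The genes whose pattern over the 8 libraries lay closest to that of Spry1 were Slc25a46, Pop4 and Slc25a16. Closeness was the root mean square difference of log2 values centred on the control mean, over 9137 genes with a mean of at least 5 FPKM and 1 entry per symbol. It was 0.087 for Slc25a46, which encodes a protein of the outer mitochondrial membrane, 0.087 for Pop4, a subunit of RNase P and RNase MRP, and 0.091 for Slc25a16, a mitochondrial carrier. Their log2 fold changes were -0.5, -0.59 and -0.54, and the groups did not overlap for any of them. Both follow from choosing genes by closeness to Spry1 in the same libraries and are no separate result. All 3 held GACCTTA or ACCTTAA in their 3′ untranslated region, which Spry1 did not. These words were chosen on these data for lower genes, and no test was made of them here.

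Other inhibitors that act at the receptor or at Ras changed in both directions. Il17rd, which encodes the FGF receptor antagonist Sef, fell from 8.29 ± 0.254 to 6.68 ± 0.149 FPKM (mean ± SD of 4 libraries here and below), a log2 difference of -0.29 with a limma adjusted p of 0.0013. Errfi1, whose product binds and inhibits the EGF receptor, fell from 19.9 ± 0.621 to 17.5 ± 0.51 FPKM (-0.18, limma adjusted p = 0.0094). The ubiquitin ligase gene Cblb rose from 12.8 ± 0.196 to 14.7 ± 1.03 FPKM (0.19, limma adjusted p = 0.027), a call lost on leaving out any of controls 2 and 4 and Fto siRNA libraries 1, 2 and 3 (0.056 to 0.0759). Of 16 tested genes of this list 3 rose, 3 fell and 10 did not pass, with a median of 0.02. Over all tested genes 6.97% rose and 12.3% fell, which stands beside this and each list below. No list was tested as a whole. After median-ratio or quantile scaling 4 of the 16 rose and 2 fell. The 3′ untranslated region of Il17rd holds ACCTTAA, and those of Errfi1 and Cblb hold neither word. Because the words were chosen on these data for lower genes, their presence here and below is a description only. The regions searched also differed in length, from 612 bases for Mapk3 to 5900 bases for Il17rd.

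The remaining members of the families were mostly low or did not pass. Of 5 other MAP kinase phosphatase genes Dusp2, Dusp8 and Dusp9 were under the filter, and limma called 0 of the 2 tested, Dusp7 and Dusp16, with 1 lower at an unadjusted p under 0.05. Spred3 was at -0.2 on the log2 scale (limma adjusted p = 0.068), lower at an unadjusted p under 0.05 and with groups that did not overlap. After quantile scaling it was at -0.14 and did not pass at an unadjusted p under 0.05. Of 9 tested atypical and other Dusp genes, Dusp3 fell from 1.54 ± 0.176 to 1.05 ± 0.0804 FPKM (-0.39, limma adjusted p = 0.019) and Dusp11, an RNA phosphatase, rose from 42.4 ± 0.743 to 46.1 ± 1.62 FPKM (0.12, limma adjusted p = 0.038). The call of Dusp11 was lost without a trend in the prior variance (limma adjusted p = 0.058) and on leaving out any of controls 2 and 4 and Fto siRNA libraries 2 and 3 (0.093 to 0.0998). The 3′ untranslated region of Dusp3 holds ACCTTAA and that of Dusp11 GACCTTA.

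Upstream of the inhibitors, ligand and receptor genes were called in both directions. Of 14 tested ligand genes 1 rose and 4 fell, with a median of -0.05, beside 6.97% risen and 12.3% fallen of all tested genes. The ErbB ligands Nrg1 and Ereg fell by 0.33 each on the log2 scale, from 29.7 ± 1.64 to 23.6 ± 0.382 and from 8.52 ± 0.724 to 6.64 ± 0.171 FPKM, and Pdgfc rose by 0.22. Of 13 tested receptor genes 2 rose and 4 fell, with a median of -0.01, beside the same shares. The FGF receptor gene Fgfr2 rose from 30.7 ± 1.26 to 38 ± 0.916 FPKM (log2 change 0.3, limma adjusted p = 6e-04), while Pdgfra fell from 240.0 ± 9.97 to 208.0 ± 4.63 FPKM (-0.21) and the TAM receptor gene Axl fell by 0.2 on the log2 scale. The 3′ untranslated regions of Nrg1, Ereg, Pdgfra and Axl hold ACCTTAA, and those of Pdgfc and Fgfr2 hold neither word.

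Among adaptors and Ras genes Ptpn11 fell and Frs2 rose. Ptpn11, which encodes the phosphatase SHP2 that carries receptor signals to Ras, fell from 48.1 ± 2.47 to 37.0 ± 0.337 FPKM (log2 change -0.37, limma adjusted p = 2.8e-04), and its 3′ untranslated region holds both words. The FGF receptor adaptor gene Frs2 rose from 27.2 ± 0.989 to 31.9 ± 0.997 FPKM (0.22, limma adjusted p = 0.0035), and holds neither word. Of 21 tested genes 4 rose, 3 fell and 14 did not pass, with a median of 0.04, and 6 rose under median-ratio scaling. In the main fit 6.97% of all tested genes rose and 12.3% fell.

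Of 20 tested genes of the ERK cascade, from Raf to the ERK substrates, 2 rose, 1 fell and 17 did not pass, with a median of 0.01. Among all tested genes 6.97% rose and 12.3% fell. Mapk3, which encodes ERK1, fell from 95.5 ± 6.92 to 71.6 ± 1.69 FPKM (log2 change -0.41, limma adjusted p = 4.7e-04) and holds neither word. The scaffold gene Ksr1, whose locus overlaps Gm11201, rose by 0.21, and the ERK-activated kinase gene Mknk1 by 0.16, and neither holds a word. Mknk1 lost its call with no filter on low values (limma adjusted p = 0.0526) and on leaving out any of controls 1 and 3 and Fto siRNA libraries 1, 3 and 4 (0.0591 to 0.0841).

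In the p38 and JNK branch, 2 of 22 tested genes rose and 2 fell, with a median of 0.0, against 6.97% and 12.3% of all tested genes. The p38 gene Mapk14 fell from 46.9 ± 1.26 to 42.9 ± 0.42 FPKM (log2 change -0.13, limma adjusted p = 0.018) and its substrate gene Mapkapk3 by 0.21 on the log2 scale, while Mapkapk2 rose by 0.13. Leaving out any of controls 1 and 4 and Fto siRNA library 3 ended the call of Mapkapk2 (limma adjusted p 0.0534 to 0.0642). None of Mapk14, Mapkapk3 and Mapkapk2 holds GACCTTA or ACCTTAA, while Mapkapk3 and Mapkapk2 hold the shorter ACCTTA.

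Downstream, genes induced by ERK outside the 10 were called in both directions. Of 35 tested genes 6 rose, 3 fell and 26 did not pass, with a median of 0.08, and 8 rose under median-ratio or quantile scaling. In the main fit 6.97% of all tested genes rose and 12.3% fell. Jun, a subunit of AP-1, rose from 28.7 ± 1.09 to 37.0 ± 1.43 FPKM (log2 change 0.36, limma adjusted p = 3.6e-04), Klf10 rose by 0.3, and the cyclin gene Ccnd1 rose by 0.17, from 139.0 ± 3.09 to 157.0 ± 1.97 FPKM. Fos and Egr1, immediate early genes, were at 0.09 and -0.06 (limma adjusted p = 0.72 and 0.5). Jun, Klf10 and Ccnd1 hold neither word, while Ccnd1 holds the shorter ACCTTA. Of 10 genes of ETS factors and the repressor Cic, through which ERK acts on transcription, 3 fell, against 12.3% of all tested genes. Limma called 0 of them higher, against 6.97% of all tested genes, with 1 higher at an unadjusted p under 0.05. Ets1 fell from 25.9 ± 0.918 to 20.3 ± 0.717 FPKM (-0.35, limma adjusted p = 3.9e-04), Ets2 by 0.32 and Elk3 by 0.14 on the log2 scale, and only Ets2 of these holds either word. Elk3 was not called without control replicate 1 (limma adjusted p = 0.0502) or Fto siRNA replicate 2 (0.0556).

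**Figure D5:**
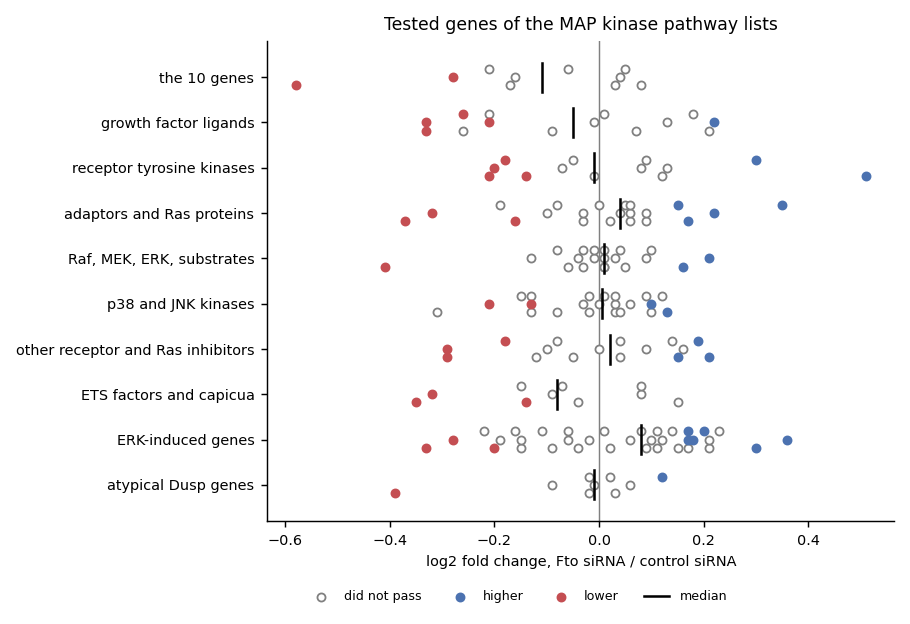
Log2 fold change of Fto siRNA over control siRNA (horizontal axis) of every tested gene of the 10 inhibitors and of 9 MAP kinase pathway lists (rows), blue for called higher, red for called lower, open for genes that did not pass, with a black bar at the median of the list. Called genes lie on both sides of 0 in each list except the 10 inhibitors and the ETS factors, whose called genes are all lower.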

How the data were processed

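RNA of 8 samples was sequenced, 4 with control siRNA and 4 with Fto siRNA, grouped by their titles. TopHat2 2.0.11, Cufflinks 2.2.1 and the build mm9 are named in the submitters' processing notes. Per the file headers, the authors deposited FPKM values for each gene and library with their lower and upper bounds. With library depth, strandedness and annotation not given in the sources used here, overlapping, antisense or near-identical genes can share reads. FPKM are not counts, so no count test was run.

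Here log2(FPKM + 0.5) of genes with a mean of at least 1 FPKM was fitted in R 4.3.3 by limma 3.58.1, using a mean-variance trend and Benjamini-Hochberg adjustment over all tested genes. Fold changes on this scale understate those of low genes. The test was checked on simulated data. Ratios and Fto were tested by exact permutation (scipy 1.17.1, Python 3.11.15). Genes named are the 10 members, Fto, up to 3 called genes with the lowest p per pathway list and the 3 genes closest to the called member with the largest fall. Spry3, Spred3, Dusp2, Dusp7, Dusp8, Dusp9, Dusp16, Fos and Egr1 were named after their values were seen, and 1 gene that the rule names is not reported here. The members and lists were chosen with earlier results of these data known. Across all tested genes 794 rose and 1401 fell, so risen genes made up 36.2% of calls, against 47.1% after median-ratio and 47.4% after quantile scaling. Other pseudocounts, filters, scalings, a replicate block and leaving out each library were tried. The authors' compiled tables were not used here. Intervals are at 95% from limma, and they and the deposited intervals cover different errors: the former the spread between libraries, the latter that within 1 library.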

Additional observations from a re-analysis of the deposited data

Results flagged for a closer look

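Among the named genes, 1 library stood apart from the other 3 of its group by Dixon's criterion. Mapk14 held 48.8 FPKM in control replicate 3, against 46.1 to 46.6 FPKM in the other controls. Chance flags about 1 in 20 groups, and 80 groups were checked. None of the 10 inhibitors had a library flagged in either group.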

How the results depend on the processing

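Under 16 alternatives, Spry1 kept its call with log2 fold changes of -0.62 to -0.54 and limma adjusted p of 3.09e-04 to 0.00314, and Spry2 kept its call with -0.32 to -0.24 and 0.014 to 0.0485. For Spry2 the highest value came without Fto siRNA replicate 3. The count of members called lower was 2 to 3 over the left-out libraries and 2 in every other alternative, and that of members called higher was 0 in all. Over the left-out libraries Dusp1 ranged from -0.0012 (without control replicate 1) to 0.13 and Dusp4 from -0.16 to 0.02 (without control replicate 4), so the sign of each turned once, and neither was called. A mean of at least 5 FPKM left 6 of the 10 genes in the test, without Dusp4, Dusp5, Dusp6 and Spry4. Over all genes the alternatives gave 549 to 1086 called higher and 992 to 1432 called lower, and the median fold change moved by less than 0.1.

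The replicate numbers did not pair the libraries: deviations of same-numbered libraries correlated at 0.0736, -0.0402, -0.19 and -0.0895. With a replicate block the counts were 628 and 1133, the log2 fold changes of Spry1 and Spry2 were -0.58 and -0.28 (limma adjusted p = 8.38e-04 and 0.022), and Dusp11, Cblb, Mknk1, Mapk14, Mapkapk2 and Elk3 were not called (0.0506 to 0.0753). Cblb was also not called with no filter on low values (0.0522). The within-library ratio tests, with alternatives chosen after seeing the data, kept their direction without each library, at -0.33 to -0.28, -0.77 to -0.64 and -0.45 to -0.34 for Spry1 to Spry2, Spry1 to Spry4 and Spry2 to Spry4. The limit that depth sets cannot be given, since library depth is not known.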
